A study of Mus musculus with 3 samples.

Results

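The proteasome genes of mouse bone marrow were examined in RNA-seq libraries of healthy and of leukemic cells. The members are the protein-coding genes whose symbol is Psma, Psmb, Psmc, Psmd or Psme and a digit, found by their NCBI Gene ID. The gene table holds 46 such genes, and 45 of them were listed in a library, among 16742 genes listed in all. Psme2b was listed in none. Of the 45, 43 encode subunits, activators or assembly factors. Psmc3ip, a partner of the meiotic recombination machinery, and Psme3ip1, a binding partner of Psme3, share the letters and are no subunits.

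The series holds 3 libraries, 1 per condition and each from 3 pooled C57BL/6 mice of 6 to 8 weeks by the labels. The control library came from lin- bone marrow cells of wild-type mice, which are the cells left when those with mature lineage markers are removed. The TR1 and TR9 libraries came from GFP+ bone marrow cells of TBLR1-RARa leukemia mice of the third generation, in which a retroviral vector drives the fusion gene and GFP from 1 transcript, and each line goes back to 1 primary mouse. Control cells were thus obtained by lineage depletion and TR cells by sorting for GFP, and this difference and the genotype cannot be told apart. No condition has a replicate, so every interval given here is a 95% interval for counting error, and every test compares libraries and not conditions.

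The proteasome is the protease complex that degrades proteins tagged with ubiquitin. Its 20S core is a barrel of stacked rings of alpha and beta subunits with the active sites inside, and the 19S cap binds the tagged proteins, unfolds them with a ring of ATPases and feeds them into the core. Interferon gamma induces the catalytic subunits Psmb8, Psmb9 and Psmb10, which replace Psmb5, Psmb6 and Psmb7 in new cores. The resulting immunoproteasome cuts peptides suited to MHC class I molecules, and blood cells are known to carry it without infection as well.

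Expected counts summed to between 5129662 and 5571409 per library. Levels are given as FPKM, fragment counts scaled for transcript length and library total, which allows genes of different length to be set side by side. A gene met the criterion in a comparison when its Poisson test passed a false discovery rate of 0.001 over all genes and the absolute log2 ratio of its FPKM was 1 or more. The median log2 ratio over all genes tested was -0.29 in TR1 against control, -0.12 in TR9 against control and 0.13 in TR9 against TR1. TMM scaling, which sets the bulk of genes near 0, takes away a shift of -0.24, -0.11 and 0.13 from all genes of the 3 comparisons, so that log2 ratios smaller than this depend on the scaling. Because whole pools of cells were sequenced, fewer cells of a type and less RNA per cell cannot be told apart. Erythroid markers (8 of 8 listed) summed to 2760 FPKM in control, against 42.8 in TR1 and 42.4 in TR9, and megakaryocyte markers (5 of 5 listed) to 888, 2.85 and 1.60. Promyelocyte markers, of which Azu1 was not listed, summed to 4100 FPKM in control, 20450 in TR1 and 23290 in TR9.

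Proteasome genes were among the more abundant genes of every library and took a smaller share of the reads in both TR libraries. Of all counts, the members held 0.551% in control cells, 0.377% in TR1 and 0.384% in TR9. The median FPKM of the listed subunits and assembly factors was 89.3 in control (n = 43 genes), 54.5 in TR1 and 57.8 in TR9 (n = 42 genes each), which lies at the percentiles 94.5, 90.8 and 91.4 of all listed genes. The gene with the highest level differed between libraries: it was Psme3 with 169 FPKM in control, Psma6 with 157 in TR1 and Psme1 with 186 in TR9.

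**Figure D1:**
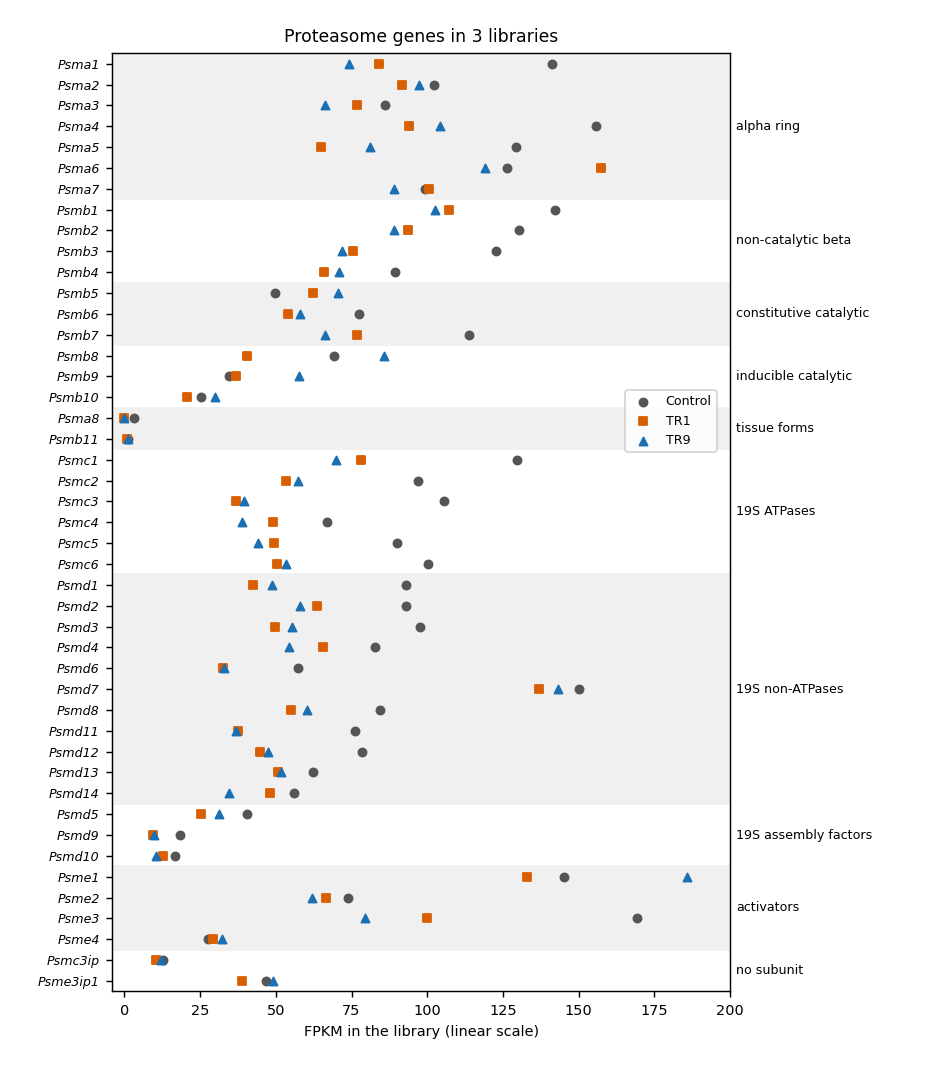
FPKM of the 45 listed proteasome genes (linear horizontal axis) in the control, TR1 and TR9 libraries, 1 point per library, with genes grouped by role. In the 19S groups the control point stands to the right of both TR points for every gene, while Psmb5, Psmb8, Psmb9, Psmb10, Psme1 and Psme4 have their highest point in TR9.

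In TR1 against control, 4 members met the criterion as lower, Psma8, Psmc3, Psmd1 and Psmd11, where 13.0% of all genes did, and 0 as higher, where 8.09% of all genes did. In TR9 against control, 5 members did so as lower, Psma8, Psmc3, Psmc5, Psmd11 and Psme3, beside 10.8% of all genes, and 0 as higher, beside 9.37%. These counts of lower members, out of 45, are near the background. With counts scaled by TMM, Psma8 and Psmc3 met the criterion in each comparison and no other member did, while an edgeR exact test with an assumed biological variation kept only Psma8.

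Smaller differences in the same direction were spread over most members. Among the 42 members with a mean of at least 100 counts, the interval lay below 0 for 32 (76.2%) in TR1, where 51.1% of genes of that abundance had such an interval, and above 0 for 2 (4.76%), where 27.0% of those genes did. In TR9 it lay below 0 for 31 of 42 (73.8%) against a background of 44.1%, and above 0 for 5 (11.9%) against 31.5%. Under TMM scaling 25 of 42 intervals lay below 0 and 5 above in TR1, beside 36.3% and 36.7% of those genes. In TR9 29 lay below and 6 above, beside 37.8% and 36.4%. For the 42 genes together the median stood at -0.54 (TR1) and -0.59 (TR9), or -0.30 and -0.49 under TMM.

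**Figure D2:**
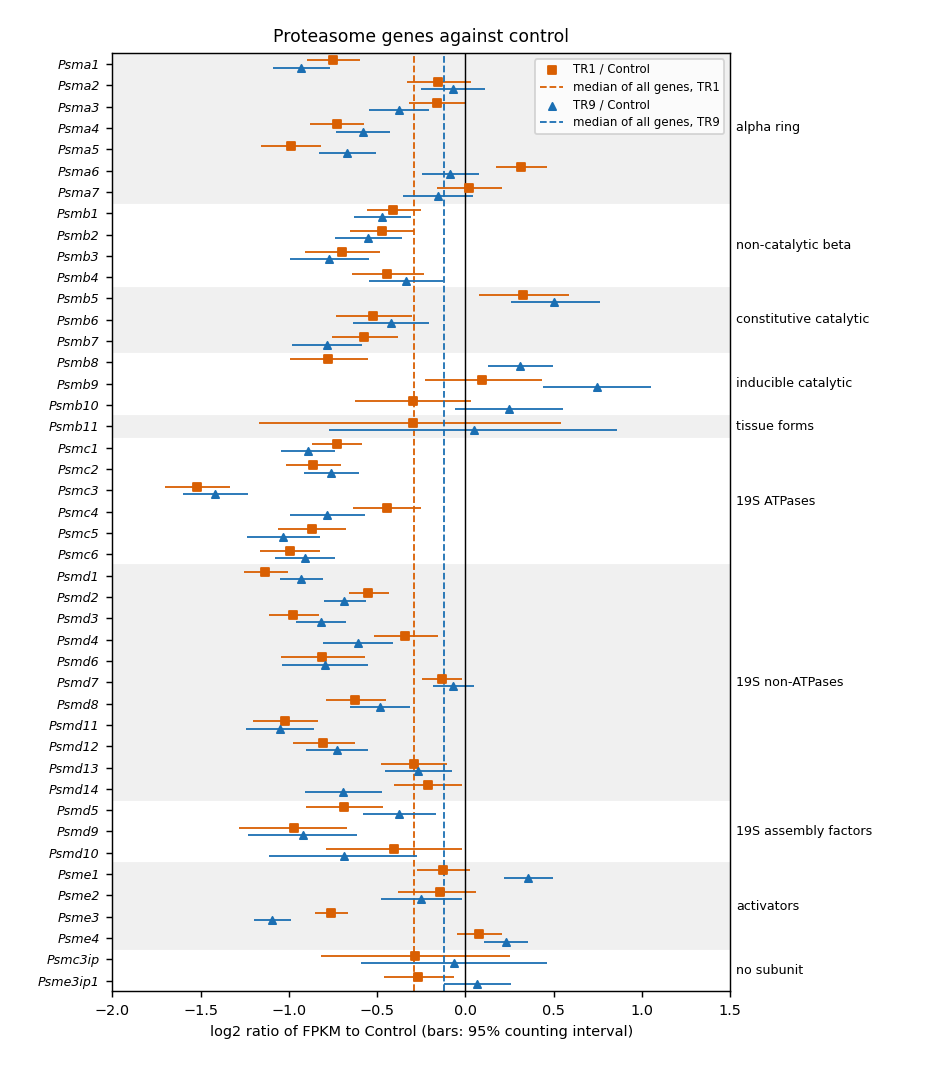
Log2 ratio of FPKM to control for 44 proteasome genes in TR1 (squares) and TR9 (triangles), with 95% counting intervals as bars and the median of all genes as dashed lines. Psma8, listed at 0 in both TR libraries, is not drawn. Most points lie left of the dashed lines, and Psmc3 lies farthest left in both comparisons, at -1.52 and -1.42.

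Most subunits of the 19S cap, which recognises and unfolds the substrate, were lower in both TR libraries by FPKM, and Sem1, a cap subunit whose symbol lies outside the rule, was higher. The 17 ATPase and non-ATPase members had log2 ratios below 0 in both comparisons by FPKM. The interval lay below 0 for 17 in TR1 and 16 in TR9, or 13 and 15 under TMM scaling. Of genes with a mean of at least 100 counts, 51.1% and 44.1% had such an interval, or 36.3% and 37.8% under TMM. The median of the 17 stood at -0.80 (TR1) and -0.78 (TR9), or -0.57 and -0.68 under TMM. The 6 ATPases together summed to 589 FPKM in control, against 317 in TR1 and 303 in TR9, and the 11 non-ATPases to 931, 627 and 623.

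Among the ATPases, Psmc3 was at 106 FPKM in control, 36.9 in TR1 and 39.6 in TR9, from 952, 338 and 334 counts. Both TR libraries were thus well below control and close to each other, and Psmc3 fell in each, with log2 ratios of -1.52 (TR1) and -1.42 (TR9). Psmc5 was at 90.0 FPKM in control, against 49.2 in TR1 and 44.0 in TR9. It fell by 1.03 on the log2 scale in TR9, while its log2 ratio of -0.87 in TR1 did not meet the criterion. Psmc4 had the smallest difference of the ring in TR1, with 66.8, 49.1 and 38.9 FPKM (log2 ratio -0.45), and Psmc2 the smallest in TR9, with 97.0, 53.3 and 57.3 FPKM (log2 ratio -0.76).

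Among the non-ATPases, Psmd1, one of the large scaffold subunits of the cap, was at 93.0 FPKM in control, 42.3 in TR1 and 48.7 in TR9, from 1670, 774 and 819 counts. It fell by 1.13 on the log2 scale in TR1, and its log2 ratio was -0.93 in TR9. Psmd11, a subunit of the lid, was at 76.0, 37.5 and 36.7 FPKM, and fell by 1.02 in TR1 and by 1.05 in TR9 on the log2 scale. Psmd7, the lid subunit that pairs with the deubiquitinase Psmd14, differed least: 150 FPKM in control, 137 in TR1 and 143 in TR9, with log2 ratios of -0.13 and -0.07 that become 0.10 and 0.04 under TMM. Psmd14 itself was at 55.9 FPKM in control and 48.2 in TR1 but 34.6 in TR9, and the interval of its TR9 to TR1 log2 ratio, -0.71 to -0.26, lay below 0.

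The 3 factors that assist assembly of the cap were on the same side. Psmd9 was at 18.4 FPKM in control, 9.40 in TR1 and 9.75 in TR9. Psmd10, also known as the oncoprotein gankyrin, was at 16.8, 12.7 and 10.4, and Psmd5 at 40.6, 25.2 and 31.3. The log2 ratios of these 3 ran from -0.97 (Psmd9) to -0.40 (Psmd10) in TR1 and from -0.92 (Psmd9) to -0.38 (Psmd5) in TR9, and none met the criterion.

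The alpha ring, which gates the entry to the core, differed from gene to gene. In TR1 the 7 log2 ratios ran from -0.99 for Psma5 to 0.31 for Psma6, with a median of -0.16 that becomes 0.08 under TMM. Psma6 was at 126 FPKM in control, 157 in TR1 and 119 in TR9, so that TR1 stood above the other libraries. Psma5 was at 129, 65.0 and 81.3 FPKM, with TR1 the lowest. In TR9 the ratios ran from -0.93 for Psma1, with 141, 84.1 and 74.2 FPKM, to -0.07 for Psma2, with 102, 91.8 and 97.1 FPKM, and their median was -0.38. No alpha subunit of the ring met the criterion against control.

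By FPKM the 4 structural beta subunits, which carry no active site, were lower in both TR libraries with intervals below 0 in each. Such an interval was found for 51.1% (TR1) and 44.1% (TR9) of genes with a mean of at least 100 counts. Under TMM scaling it was found for 3 of the 4 subunits in TR1 and 4 in TR9, beside 36.3% and 37.8% of those genes. The log2 ratios of the 4 subunits ran from -0.70 (Psmb3) to -0.41 (Psmb1) in TR1 and from -0.77 (Psmb3) to -0.34 (Psmb4) in TR9. Psmb3 was at 123 FPKM in control, 75.5 in TR1 and 71.9 in TR9, Psmb1 at 142, 107 and 102, and Psmb4 at 89.3, 65.8 and 70.7. None of them met the criterion.

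Set within each library, the 17 cap members were lower relative to the core in both TR libraries, an order that turned by FPKM when Sem1 was counted with them. The 17 members summed to 0.971 times the FPKM of the 14 alpha and constitutive beta subunits in control (95% counting interval 0.946 to 0.997), 0.783 times in TR1 (0.759 to 0.809) and 0.799 times in TR9 (0.773 to 0.826). The ratio of the summed counts changed by a factor of 0.80 from control to TR1 (0.767 to 0.833) and 0.825 to TR9 (0.79 to 0.861), and between TR1 and TR9 the log2 change had an interval of -0.02 to 0.11. With Sem1 added, the FPKM ratio was 1.06 in control, 1.19 in TR1 and 1.13 in TR9, while the ratio of the summed counts still changed by factors of 0.89 (TR1) and 0.894 (TR9). Such ratios do not depend on how the libraries are scaled but do depend on which genes are summed. The comparison was chosen after the values were seen. The erythroid and megakaryocyte marker sums given above moved with it, and their part in it was not tested.

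Of the tissue forms, Psma8, an alpha subunit of the testis, had 28 counts (3.03 FPKM) in control cells and was at 0 in both TR libraries. Against a floor of 3 counts its level in TR1 was at least 9.47-fold lower, and in TR9 at least 8.72-fold lower. Psmb11, the catalytic subunit of thymic epithelium, was near the bottom of the measured range with 1.19, 0.97 and 1.23 FPKM. RSEM gave Psmb11 and Psmb5 counts that are not whole, as it did for Psmb7 and Psmd9, which shows that reads were divided with other features.

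The constitutive catalytic subunits did not move together. Psmb5, which carries the chymotrypsin-like site, was at 49.6 FPKM in control, 62.2 in TR1 and 70.4 in TR9, with log2 ratios of 0.32 (0.08 to 0.59) and 0.50 (0.26 to 0.76). By FPKM it was the only catalytic subunit of the constitutive core with intervals above 0. With FPKM scaled to equal sums its log2 ratio in TR1 was 0.12, and the interval held 0 (-0.13 to 0.38). Psmb6, with the caspase-like site, was at 77.6, 54.1 and 57.9 FPKM (log2 ratios -0.52 and -0.42). Psmb7, with the trypsin-like site, was at 114, 76.7 and 66.1 FPKM (log2 ratios -0.57 and -0.79). None of the 3 met the criterion in any comparison.

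The inducible catalytic subunits were higher in TR9 than in TR1, each with its interval above 0. Psmb8 was at 69.2 FPKM in control, 40.4 in TR1 and 85.7 in TR9, from 458, 272 and 531 counts. TR1 was the lowest of the 3 libraries for this gene and TR9 the highest, with log2 ratios to control of -0.78 (upper bound -0.55) and 0.31 (0.13 to 0.49). With FPKM scaled to equal sums the latter was 0.10 (-0.08 to 0.29). Psmb8 was the only 1 of 44 members tested that met the criterion in TR9 against TR1 as higher, where 4.34% of all genes did, and 0 members met it as lower, where 2.31% did. It rose by a log2 ratio of 1.09 (0.87 to 1.30). Under TMM scaling the log2 ratio was 0.95 and no longer met the criterion.

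Psmb9 was at 34.5 FPKM in control, 36.8 in TR1 and 57.7 in TR9, from 148, 161 and 232 counts. By FPKM control and TR1 were thus close and TR9 stood above both. Its log2 ratio was 0.10 (-0.23 to 0.43) in TR1 against control, 0.74 (0.44 to 1.05) in TR9 against control and 0.65 (0.35 to 0.95) in TR9 against TR1. Under TMM scaling the log2 ratio in TR1 against control was 0.335, with the interval just above 0 (0.008 to 0.671). Psmb10 was at 25.3, 20.6 and 30.0 FPKM, from 174, 144 and 193 counts. The order of the libraries was the same as for Psmb8, but by FPKM its intervals against control held 0 in TR1 (-0.62 to 0.03) and in TR9 (-0.06 to 0.55). By FPKM only TR9 against TR1, at 0.54 (0.22 to 0.86), lay clear of 0. Under TMM scaling the interval of TR9 against control lay above 0 (0.05 to 0.66). With FPKM scaled to equal sums that of TR1 against control lay below 0 (-0.83 to -0.17).

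Because each inducible subunit takes the place of a constitutive one, the pairs were compared within each library, where scaling plays no part. Psmb8 stood at 1.39 times the FPKM of Psmb5 in control (1.19 to 1.64), 0.649 times in TR1 (0.548 to 0.767) and 1.22 times in TR9 (1.06 to 1.40). TR1 was thus the only library with less Psmb8 than Psmb5. The ratio of Psmb9 to Psmb6 was 0.444 in control (0.366 to 0.536), 0.681 in TR1 (0.559 to 0.827) and 0.998 in TR9 (0.837 to 1.19), and that of Psmb10 to Psmb7 was 0.222 (0.186 to 0.263), 0.268 (0.22 to 0.325) and 0.453 (0.377 to 0.543).

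The 3 pairs therefore differed from control in different ways. In TR1 the log2 change was -1.10 (-1.44 to -0.77) for Psmb8 to Psmb5, 0.62 (0.22 to 1.02) for Psmb9 to Psmb6 and 0.27 (-0.11 to 0.65) for Psmb10 to Psmb7. In TR9 it was -0.19 (-0.51 to 0.12), 1.17 (0.79 to 1.55) and 1.03 (0.66 to 1.40). From TR1 to TR9 all 3 changes were above 0, at 0.91 (0.59 to 1.23), 0.55 (0.17 to 0.93) and 0.76 (0.37 to 1.15). Of the summed FPKM of the 6 catalytic genes, the inducible ones held 34.8% in control, against 33.6% in TR1 and 47.1% in TR9. The ratio of summed counts had a log2 change from control of -0.12 (-0.32 to 0.08) in TR1 and 0.73 (0.54 to 0.91) in TR9. That of the summed FPKM changed by -0.08 and 0.74. Levels of mRNA do not give the composition of the assembled complexes, which was not measured.

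**Figure D3:**
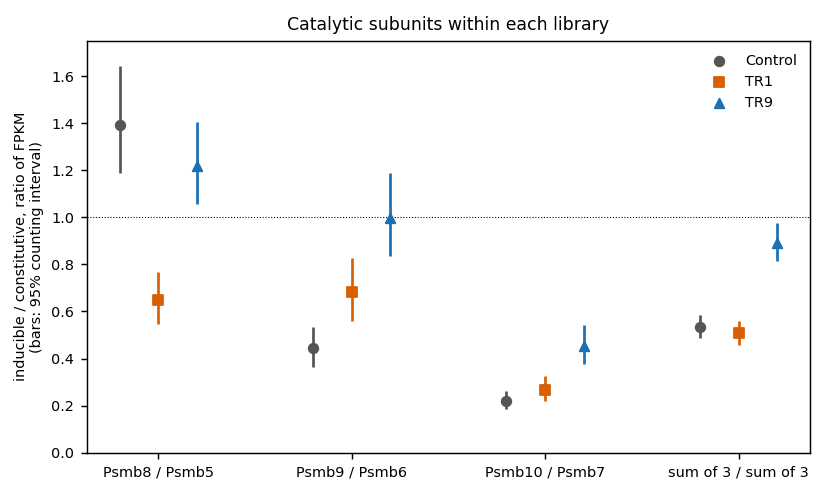
Ratio of the FPKM of each inducible catalytic subunit to that of its constitutive counterpart, and of the 2 sums, within the control, TR1 and TR9 libraries, with 95% counting intervals as bars. The dotted line marks equal levels. TR1 lies lowest for Psmb8 to Psmb5, and TR9 lies highest for the other pairs and for the sums.

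The DNA upstream of Psmb5, Psmb8, Psmb9 and Psmb10 is shown, catalytic genes whose FPKM was highest in TR9. Psmb6, which was lower in both TR libraries than in control, also has a window, which is not shown. The sequences are the RefSeq promoter windows of GRCm38.p6, read 5′ to 3′ on the strand of the gene and ending just before its annotated start, and the stretch between the divergent genes Psmb9 and Tap1, on the plus strand from the start of Psmb9 to that of Tap1. Psmb8 is on the plus strand (chr17:34197945-34198194), the Psmb9 and Tap1 stretch covers the 225 bases of chr17:34187331-34187555, Psmb10 is on the minus strand (chr8:105938393-105938642) and so is Psmb5 (chr14:54617996-54618245). Capitals mark matches to the searched motifs.
Psmb8: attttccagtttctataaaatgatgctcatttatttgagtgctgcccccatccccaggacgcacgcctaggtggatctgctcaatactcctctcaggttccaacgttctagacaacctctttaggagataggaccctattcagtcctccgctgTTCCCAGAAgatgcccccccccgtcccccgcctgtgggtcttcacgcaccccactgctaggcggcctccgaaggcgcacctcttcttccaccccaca
Psmb9-Tap1: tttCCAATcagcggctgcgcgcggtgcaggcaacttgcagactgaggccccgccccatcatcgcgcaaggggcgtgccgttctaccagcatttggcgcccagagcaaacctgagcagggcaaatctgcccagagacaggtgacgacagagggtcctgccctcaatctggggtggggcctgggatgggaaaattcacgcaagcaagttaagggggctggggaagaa
Psmb10: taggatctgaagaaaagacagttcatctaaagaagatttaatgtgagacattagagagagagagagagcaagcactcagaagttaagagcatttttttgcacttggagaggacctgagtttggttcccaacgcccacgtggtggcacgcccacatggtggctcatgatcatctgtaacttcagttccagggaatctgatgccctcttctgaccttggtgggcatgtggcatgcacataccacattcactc
Psmb5: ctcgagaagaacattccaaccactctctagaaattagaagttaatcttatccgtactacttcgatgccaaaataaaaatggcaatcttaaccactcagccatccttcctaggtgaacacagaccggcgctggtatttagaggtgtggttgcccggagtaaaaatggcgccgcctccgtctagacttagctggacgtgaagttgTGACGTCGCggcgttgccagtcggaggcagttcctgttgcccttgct
The motifs, picked after the values were seen, were the interferon response element, taken as 2 copies of GAAA with 2 bases between them, the gamma-activated site TTCNNNGAA, the antioxidant response element TGACNNNGC bound by factors such as Nfe2l1, and the CCAAT box, searched on both strands in 250 bases. Psmb8 held 1 gamma-activated site 88 bases before its start, a motif in 8.13% of all 27025 genes with a window and in 1 of 38 members. Psmb5 held 1 antioxidant response element 38 bases before its start, a motif in 11.5% of genes and in 5 of 38 members (Psmb5, Psmb6, Psmc6, Psmd9 and Psmd12). The stretch between Psmb9 and Tap1 held a CCAAT box, a motif in 37.5% of genes and 16 of 38 members, and the window of Psmb10 held no match. The interferon response element was in 3.46% of genes and 3 of 38 members (Psmb3, Psmd4 and Psmd9). No match overlapped another in the stretches shown, and a match describes letters and not a site in use. Psma8, Psmb1, Psmb2, Psmb7, Psmc3, Psmd3 and Psmd7 had no entry in the promoter table.

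The activators, rings that open the core without ubiquitin or ATP, split by gene. Psme1, the alpha subunit of the interferon-inducible activator, was at 145 FPKM in control, 133 in TR1 and 186 in TR9, with a log2 ratio of 0.48 (0.34 to 0.62) in TR9 against TR1. Its beta partner Psme2 was at 73.8, 66.7 and 62.1 FPKM, with a log2 ratio of -0.10 (-0.32 to 0.15) between the same libraries. The ratio of Psme1 to Psme2 within a library was 1.97 in control and 2.99 in TR9. Its log2 change was 0.04 (-0.23 to 0.31) from control to TR1 and 0.56 (0.29 to 0.84) from TR1 to TR9, a comparison chosen after the values were seen.

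Psme3, the nuclear activator, was at 169 FPKM in control, 99.9 in TR1 and 79.3 in TR9, from 2441, 1466 and 1070 counts, and the libraries stood clearly apart. It fell by 1.09 on the log2 scale in TR9, and its log2 ratio was -0.76 in TR1. Psme4, a large single-chain activator, was at 27.6, 29.1 and 32.3 FPKM (log2 ratios 0.08 and 0.23). With FPKM scaled to equal sums these became -0.13 in TR1 and 0.02 in TR9, and both intervals held 0. Under TMM they were 0.32 and 0.33. Psme3ip1, which is no subunit, was at 46.7, 38.9 and 49.0 FPKM, and Psmc3ip at 12.7, 10.4 and 12.1.

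Between the leukemia libraries the balance of the members depended on the scaling. Of the 42 members with a mean of at least 100 counts, 9 (21.4%) had an interval below 0 in TR9 against TR1 and 9 above 0, beside 20.2% and 36.2% of genes of that abundance. Under TMM 14 lay below and 5 above, beside 30.1% and 24.2%. Their median log2 ratio was 0.06, or -0.07 under TMM. Psmb8 was highest with 1.09 and Psmd14 lowest with -0.48. The 17 cap members had a median of 0.03 and the 3 inducible subunits a median of 0.65, with intervals above 0 for 3 of 3 under FPKM, TMM and TPM scaling.

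The other genes of the pathway were taken from a list of 41 genes, all of them listed in a library. In TR1 against control 2 met the criterion as lower and 3 as higher, in TR9 against control 2 and 4, and in TR9 against TR1 0 and 1. Over all genes the shares were 13.0% and 8.09%, 10.8% and 9.37%, and 2.31% and 4.34%, and 41 genes were tested. Pomp, the chaperone that starts assembly of the beta ring, was at 121 FPKM in control, 74.4 in TR1 and 71.6 in TR9 (log2 ratios -0.70 and -0.75). Psmf1, which inhibits the core, was at 20.3, 9.04 and 8.58 FPKM, and fell by 1.17 in TR1 and by 1.24 in TR9 on the log2 scale. Usp14, a deubiquitinase of the cap, was at 46.7, 24.2 and 22.5 FPKM, and fell by 1.05 in TR9 on the log2 scale. Under TMM scaling the log2 ratios of Psmf1 in TR1 (-0.93) and of Usp14 in TR9 (-0.94) no longer met the criterion.

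Sem1, the smallest subunit of the cap, which also binds Brca2, was by FPKM the exception among cap genes. It was at 135 FPKM in control, 490 in TR1 and 387 in TR9, from 342, 1267 and 919 counts. Both TR libraries were well above control, and Sem1 rose by log2 ratios of 1.86 (1.69 to 2.04) and 1.52 (1.34 to 1.71). By FPKM the 4 other cap-bound factors of the list had intervals below 0 in both comparisons. Such an interval was found for 51.1% (TR1) and 44.1% (TR9) of genes with a mean of at least 100 counts. Under TMM scaling it was found for 3 of the 4 factors in TR1 and 4 in TR9, beside 36.3% and 37.8% of those genes.

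Of the 7 genes that load peptides on MHC class I, Tap1 and Tap2 pump peptides into the endoplasmic reticulum. By FPKM both were nearly level between control and TR1 and higher in TR9. Tap1 was at 36.1 FPKM in control, against 38.7 in TR1 and 53.6 in TR9, and Tap2 at 39.2, 40.1 and 62.0. Under TMM scaling the log2 ratios of Tap1 and Tap2 in TR1 against control were 0.34 and 0.27. Their TR9 to TR1 log2 ratios were 0.47 (0.31 to 0.62) and 0.63 (0.47 to 0.79), on the side of Psmb9, the neighbour of Tap1. In TR9 against TR1 the intervals of 4 of the 7 lay above 0 and those of B2m, Calr and Pdia3 below 0. The lowest was the folding enzyme Pdia3 at -0.92 (-0.99 to -0.86). Of genes with a mean of at least 100 counts, 36.2% had an interval above 0 and 20.2% below 0. Under TMM scaling 4 of the 7 lay above and 3 below, beside 24.2% and 30.1% of those genes. B2m, the light chain of MHC class I, was measured with 1536, 3239 and 2337 FPKM, and rose by a log2 ratio of 1.08 in TR1 against control. Scaling FPKM to equal sums, a shift of 0.20, took this log2 ratio below 1, while under TMM it was 1.32. The median of the 7 was 0.14 in TR1 against control, 0.57 in TR9 against control and 0.32 in TR9 against TR1. Counts of Tap1 and Tap2 were not whole, so reads were divided there too.

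Of the 7 genes of interferon control, Irf8, a transcription factor of myeloid and dendritic cells, was the only pathway gene that met the criterion between TR9 and TR1. It was at 68.0 FPKM in control, 2.46 in TR1 and 44.2 in TR9, from 1059, 39 and 644 counts, and TR1 stood far below both others. It fell by 4.79 on the log2 scale in TR1 against control and rose by 4.17 in TR9 against TR1. Nlrc5, the activator of MHC class I genes, was at 5.60, 11.0 and 14.9 FPKM and rose by 1.42 in TR9 against control.

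Irf1, induced early by interferon, was at 10.4, 13.7 and 21.5 FPKM and rose by 1.05 on the log2 scale in TR9 against control. With FPKM scaled to equal sums this log2 ratio was 0.84 and no longer met the criterion, while under TMM it was 1.15. Ifngr1, a chain of the interferon gamma receptor, was at 103, 287 and 497 FPKM and rose by 1.48 in TR1 and by 2.27 in TR9 on the log2 scale. Its partner chain Ifngr2 was lower in both, at 15.0, 9.87 and 8.55 FPKM (log2 ratios -0.60 and -0.81). The median log2 ratio of the 7 was 0.40 in TR1 against control, 1.05 in TR9 against control and 0.44 in TR9 against TR1.

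**Figure D4:**
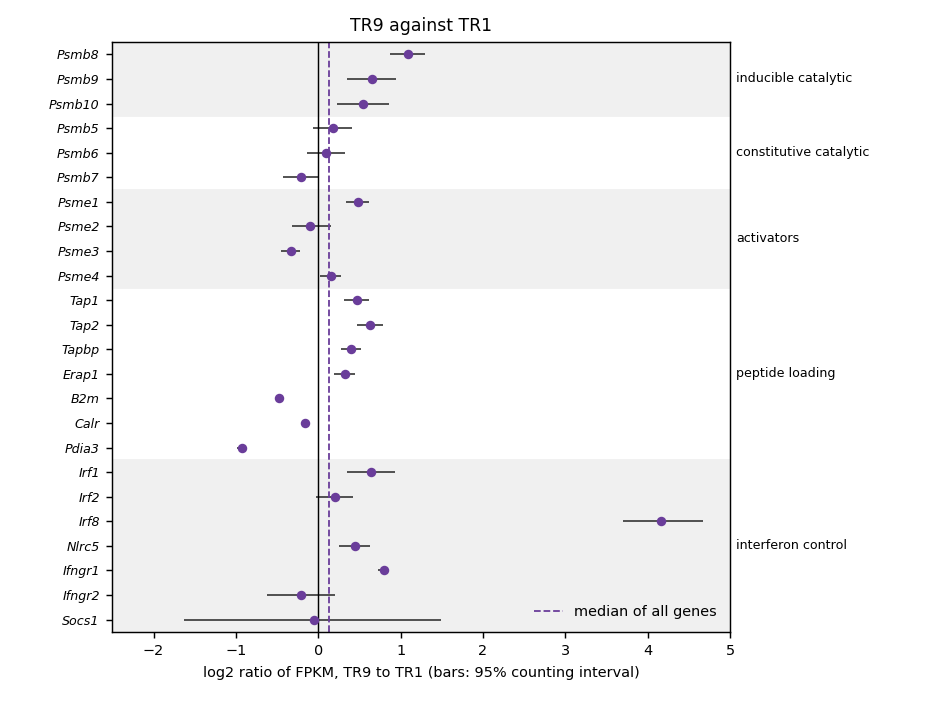
Log2 ratio of FPKM in TR9 to TR1 for the catalytic subunits, the activators, the peptide loading genes and the genes of interferon control, with 95% counting intervals as bars and the median of all genes as a dashed line. The 3 inducible subunits lie to the right of 0 with Psmb8 farthest at 1.09, and Irf8 stands apart at 4.17.

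Markers of other cell types that express immunoproteasome genes also differed between the leukemia libraries. B cell markers, of which Pax5 was not listed, summed to 12.3 FPKM in control, 16.7 in TR1 and 200 in TR9. Of this, Igll1, a surrogate light chain gene, gave 195 FPKM in TR9, and Cd79a and Cd79b were at 0 in both TR libraries. Dendritic cell markers (5 of 5 listed) summed to 42.4, 39.8 and 10.2 FPKM, with Siglech and H2-Ab1 at 0 in TR1. Of this, Flt3 gave 16.2, 38.4 and 6.65 FPKM. Itgax was also lower in TR9 than in TR1, while Cd74 (0.44 and 2.39 FPKM), H2-Ab1 (0 and 0.33) and Siglech (0 and 0.16) were higher. Markers of T and NK cells (6 of 6 listed) summed to 99.6, 362 and 238, nearly all from Thy1 and Nkg7, with Cd3e at 0 in TR1 and Cd3g, Cd2 and Klrb1c at 0 in TR9.

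Late granulocyte markers (7 of 7 listed) summed to 79.6 FPKM in control, against 22040 in TR1 and 8682 in TR9, and these genes differed in direction between the leukemia libraries. S100a8 (8188 and 2414 FPKM) and S100a9 (12864 and 1773) were higher in TR1, while Camp (364 and 1647) and Ngp (571 and 2833) were higher in TR9. Markers of stroma and endothelium (6 of 6 listed) summed to 539, 54.4 and 265 FPKM, of which Pecam1 alone gave 256 in TR9. The part of these marker groups in the difference of Psmb8, Psmb9 and Psmb10 between TR1 and TR9 was not tested.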

How the data were processed

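RNA-seq of 3 libraries (control, TR1 and TR9) was analysed. Per the labels, the authors mapped reads with BWA and Bowtie to mm9 and estimated expression with RSEM. Versions are not given in the sources used here. The authors deposited the expected count of each gene, not normalized, and its FPKM, scaled for length and library total. The files also hold each gene's length. Unlisted genes count as 0. Of 16742 NCBI Gene IDs, 16698 matched the RefSeq gene table of GRCm38.p6, used for names only.

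After rounding of the expected counts, each pair of libraries was tested gene by gene with an exact Poisson test conditioned on the library totals (scipy 1.17.1), adjusted by Benjamini-Hochberg over all genes found in either of them. This follows the study's Poisson method and its thresholds, a false discovery rate of 0.001 and an absolute log2 FPKM ratio of 1 (FPKM under 0.01 set to 0.01). Intervals of log2 ratios, and of ratios within a library, are exact 95% conditional (binomial or Fisher) intervals of the counts and cover counting error only. Below 3 counts a fold is a lower bound. Intervals are counted over genes with a mean of at least 100 counts.

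Alternatives were TMM (edgeR 4.0.16) and DESeq2 1.42.0 size factors in R 4.3.3, other thresholds, a pseudocount of 1, a minimum of 10 counts and an edgeR exact test with an assumed coefficient of variation of 0.2. TPM scaling, the sum of Psmb11 and Psmb5 and Sem1 as a cap subunit were chosen after seeing the data. Values are given in every library for the catalytic subunits, activators, members that met the criterion or were at 0, and the highest and lowest of each role group, and of the pathway list for Tap1, Tap2, Pomp and those that met the criterion. Psmd14, Ifngr2 and the ratios of Psme1 to Psme2 and of cap to core were picked with their values in view. The members and lists were chosen with earlier results of these data known. A pathway gene and a B cell marker are not reported here. The steps were tested on simulated data. Python 3.11.15, pandas 2.3.3, numpy 2.4.6 and matplotlib 3.10.9 were used.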

Additional observations from a re-analysis of the deposited data

Results flagged for a closer look

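The 2 leukemia libraries differed from each other in the inducible catalytic subunits beyond counting error. Psmb8 differed by a log2 ratio of 1.09 in TR9 against TR1. The ratio within a library differed between TR1 and TR9 by a log2 value of 0.907 for Psmb8 to Psmb5 and 0.551 for Psmb9 to Psmb6. The value was 0.757 for Psmb10 to Psmb7 and 0.843 for the summed counts. Each library is 1 pool of 3 mice, so whether the lines differ beyond the spread between mice was not tested.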

How the results depend on the processing

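The number of members that met the criterion, out of 45, depended on the settings, as did the share of all genes. In TR1 against control it was 4 (all genes 21.1%), and it was 2 with TMM or DESeq2 scaling (20.2%), 23 with a log2 ratio of at least 0.5 (34.7%), 1 with the edgeR exact test (10.1%) and 12 with TPM scaling (24.0%). In TR9 against control it was 5 (20.2%), and it was 2 with TMM (19.8%), 2 with DESeq2 scaling (19.7%), 25 with the lower ratio (32.5%), 1 with edgeR (9.49%) and 12 with TPM (22.2%). Of 44 members in TR9 against TR1 it was 1 (6.65%), and it was 0 with TMM (6.34%), DESeq2 scaling (6.30%) or edgeR (1.80%) and 2, Psmb8 and Psmb9, with the lower ratio (13.8%). With Sem1 added to the cap, an alternative chosen after seeing the data, the log2 change of the cap to core FPKM ratio reversed to 0.171 in TR1 and 0.100 in TR9 against control, and was -0.072 in TR9 against TR1. The changes of the summed inducible to constitutive ratio kept their direction and their side of 0 under every alternative run for them. Over all results and alternatives, 318 values kept direction and side of the threshold, 24 changed sign, most of them medians of role groups, 3 reversed, 25 lost the threshold or fell in number, 20 passed it or grew in number, and 6 with no test moved. Log2 ratios against control near the scaling shift changed sign with it, among them those of Psma2, Psmd7, Psme1 and Psme2 in TR1, which were below 0 with FPKM and above 0 with TMM. No paired analysis was possible because each condition has 1 library. Psma8, with 28 counts in control, and Psmb11, with 23 to 28 counts per library, are the members whose depth limits a comparison most.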
